A study of Mus musculus with 30 samples.

Results

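The unfolded protein response and the integrated stress response were followed through 10 genes: Atf4, Ddit3, Trib3, Chac1, Asns, Ppp1r15a, Hspa5, Dnajb9, Xbp1 and Herpud1. The genes were taken by symbol, and all 10 were found once in the lung table of 19470 entries and once in the spleen table of 18845 entries. The tables come from C57BL/6 mice aged 8 weeks of 3 genotypes, labelled Wild Type, lincRNA-Cox2 knockout and lincRNA-Cox2 Mutant. This locus makes a long noncoding RNA beside Ptgs2, the gene of cyclooxygenase 2, and neither the alleles nor the making of the 2 lines is given in the labels. LPS (lipopolysaccharide, an outer membrane molecule of bacteria sensed by innate immunity) went into the peritoneum at a dose of 20 mg/kg 6 h before collection, and control groups carry the label PBS. Each tissue had 3 LPS libraries and 2 PBS libraries per genotype, 30 libraries in all. Each value below is a mean over a group's libraries, computed by the authors from normalized counts, so no spread within a group is given. Whether a group's libraries came from separate animals is not in the labels, so the authors' p-values may measure technical spread only.

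Protein that fails to fold in the endoplasmic reticulum (ER) is sensed by the membrane proteins IRE1, ATF6 and PERK. IRE1 splices the Xbp1 messenger RNA, ATF6 is cut to release a transcription factor, and both raise chaperones and degradation factors of the ER. PERK phosphorylates the translation factor eIF2α, as do kinases that sense amino acid shortage, heme shortage and viral RNA. General translation then slows while Atf4 is translated more, and ATF4 raises genes of amino acid supply, Ddit3 and Trib3. This shared branch is the integrated stress response, and macrophages and secretory lymphocytes are known to use parts of both programs.

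The promoters of 4 of the 10 genes held a written response element, and they are shown because they represent both branches. The 250 bases before the RefSeq start of each gene (GRCm38.p6, the assembly of mm10) were searched on both strands, and every one of the 10 genes had an entry. The ER stress response element is bound by ATF6 with NF-Y and was present in 0.113% of 32817 promoters. Its second form, ER stress response element II, was present in 0.0305%. The C/EBP-ATF response element, TGATGNAA, is bound by ATF4 dimers and was present in 3.45%. The unfolded protein response element, TGACGTGG, bound by XBP1, was present in 0.564% and in none of these 10. Hspa5 lies on the plus strand at chr2:34771840-34772089 and held the first element from 65 to 47 bases before the start. Herpud1, on the plus strand at chr8:94386179-94386428, held the second form from 52 to 42 bases before the start and the C/EBP-ATF element on the opposite strand from 112 to 105. Chac1, on the plus strand at chr2:119350992-119351241, held the C/EBP-ATF element on the opposite strand from 193 to 186 bases before the start. Asns, on the minus strand at chr6:7693210-7693459, held it from 23 to 16. The sequences are given 5′ to 3′ along the gene's strand, with the matched letters in capitals. A match describes the letters only, and binding was not measured.
Hspa5: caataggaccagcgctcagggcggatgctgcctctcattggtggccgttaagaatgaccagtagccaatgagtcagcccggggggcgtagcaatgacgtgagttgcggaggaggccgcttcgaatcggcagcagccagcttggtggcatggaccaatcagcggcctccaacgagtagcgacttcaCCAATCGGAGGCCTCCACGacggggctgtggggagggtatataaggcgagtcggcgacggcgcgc
Herpud1: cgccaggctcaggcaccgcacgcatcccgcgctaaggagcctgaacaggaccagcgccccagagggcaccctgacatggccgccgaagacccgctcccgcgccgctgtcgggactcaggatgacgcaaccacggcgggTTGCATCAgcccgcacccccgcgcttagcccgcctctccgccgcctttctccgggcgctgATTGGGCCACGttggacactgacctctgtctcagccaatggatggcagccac
Chac1: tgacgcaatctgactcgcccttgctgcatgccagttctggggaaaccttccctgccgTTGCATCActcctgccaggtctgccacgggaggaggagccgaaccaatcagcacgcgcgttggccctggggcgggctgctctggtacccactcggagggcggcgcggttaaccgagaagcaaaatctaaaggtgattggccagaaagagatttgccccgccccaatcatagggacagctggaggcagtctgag
Asns: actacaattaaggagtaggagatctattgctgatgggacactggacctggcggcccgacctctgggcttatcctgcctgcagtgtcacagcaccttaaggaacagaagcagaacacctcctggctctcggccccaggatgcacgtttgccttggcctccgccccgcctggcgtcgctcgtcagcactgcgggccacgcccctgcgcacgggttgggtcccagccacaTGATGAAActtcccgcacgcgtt

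Some facts of the libraries touch every result. Lung libraries held an estimated 5.20 to 17.3 M (mega) reads and spleen libraries 0.940 to 8.95 M, the lowest being 1 of the 3 mutant LPS spleens. The targeted RNA had an authors' mean of 30.2 with LPS and 34.8 with PBS in wild type lung and 0 in both lines. In spleen it was 3.53 and 2.13 in wild type, 0.322 in knockout spleen with LPS and 0 in the other groups of both lines. Sex-linked genes stood at different levels in PBS and LPS groups. In lung the authors' mean of Xist was 3660 with PBS and 14.5 with LPS in wild type, 3300 and 4510 for mutant mice, and 1910 and 23.2 in knockout mice, and in spleen 2470 and 31.3, 4040 and 4670, and 3510 and 33.7. The Y-linked Ddx3y had lung means of 294 and 1150, 317 and 4.73, and 447 and 1130. Both genes were present in every PBS group, so sex makeup and LPS cannot be told apart, nor can sex and genotype where mutant LPS mice are compared with the other LPS groups. Markers checked the tissues: 7 genes of alveolar type 2 cells summed to 77770 or more in every lung group and to 1263 or less in every spleen group, and 8 B cell genes to at least 4518 in spleen and at most 1594 in lung.

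Atf4 encodes the transcription factor of the integrated stress response and lies on chromosome 15 (mm10; 80255184 to 80257545). In lung its authors' mean was 1630 with PBS and 4190 with LPS in wild type, 1480 and 4810 for mutant mice, and 1590 and 5790 in knockout mice. In spleen it was 1030 and 3320 in wild type, 1030 and 2860 for mutant mice, and 1140 and 3850 in knockout mice. Each of the 6 LPS means was above every PBS mean of its tissue. The log2 ratio of LPS to PBS means, with a pseudocount of 1 added to both, was 1.36, 1.70 and 1.86 in lung of wild type, mutant and knockout mice and 1.69, 1.47 and 1.75 in spleen.

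Trib3 and Chac1 had the highest LPS ratios of the 10 genes in spleen. Trib3 (chromosome 2, 152337425 to 152344060) encodes a pseudokinase that damps ATF4 signalling, and Chac1 (chromosome 2, 119351242 to 119354326) encodes an enzyme that degrades glutathione. In spleen the authors' mean of Trib3 was 4.05 with PBS and 134 with LPS in wild type, 3.54 and 106 for mutant mice, and 4.17 and 189 in knockout mice. These are log2 ratios of 4.74, 4.56 and 5.20 with the pseudocount of 1, and of 3.36, 3.10 and 3.81 with a pseudocount of 10. Trib3 was near the bottom of detection in the PBS spleens, where about 17, 10 and 15 reads stood behind the 3 means. The Poisson 95% intervals treat a group's estimated reads as 1 pooled count, so they are approximate, and they cover counting error only. They ran from 2.41 to 6.63 in wild type with PBS and from 120 to 149 with LPS. In lung the authors' mean of Trib3 was 49.9 and 94.6 in wild type, 49.1 and 95.3 for mutant mice, and 40.8 and 136 in knockout mice, with log2 ratios of 0.91, 0.94 and 1.71. The 2 tables were normalized separately, so levels of the 10 genes are compared between tissues only as a share of each group's total. The marker sums given above were on each tissue's own scale. In counts per M normalized counts of the group, Trib3 took 6.40 in wild type PBS lung and 1.13 in PBS spleen, but 9.46 in LPS lung and 28.6 in LPS spleen. The order of the tissues thus changed with LPS in these means.

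Chac1 had the same shape. Its authors' mean in spleen was 5.34 with PBS and 60.7 with LPS in wild type, 4.46 and 42.3 for mutant mice, and 4.32 and 90.0 in knockout mice. The log2 ratios were 3.28, 2.99 and 4.10 in spleen, against 1.06, 0.60 and 1.41 in lung. With a pseudocount of 10 they ran from 1.85 to 2.80 in spleen and from 0.48 to 1.15 in lung. In lung the PBS means ran from 20.0 to 27.7 and the LPS means from 42.6 to 65.6. With counting error alone and the same approximation, the PBS interval in wild type spleen was 3.36 to 8.11 and the LPS interval 51.7 to 71.2.

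Ddit3, on chromosome 10 (127290793 to 127296291), encodes CHOP, a transcription factor linked to death of stressed cells. In spleen its authors' mean was 67.7 with PBS and 251 with LPS in wild type and 75.6 and 255 for mutant mice, but 98.4 and 141 in knockout mice. The log2 ratios were 1.88, 1.74 and 0.51. The knockout LPS mean lay below the other 2 LPS means, while Trib3 and Chac1, which CHOP and ATF4 are known to raise, had their highest means in the same group. In the authors' deposited table Ddit3 stood at -0.74 (log2) in knockout against wild type spleen under LPS with an adjusted p of 0.665, so the difference was not called. In lung the authors' means were 184 and 250, 175 and 291, and 143 and 313, with log2 ratios of 0.44, 0.73 and 1.12. Scaled to the total of each group's means in place of the deposited scaling, Ddit3 in wild type lung stood at 0.08 and in knockout spleen at 0.06.

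Asns, the enzyme that makes asparagine (chromosome 6, 7675165 to 7693209), had lung means of 222 with PBS and 641 with LPS in wild type, 184 and 658 for mutant mice, and 176 and 650 in knockout mice. In spleen they were 146 and 331, 162 and 366, and 132 and 384. The 3 LPS means of each tissue lay close together. The log2 ratios were 1.53, 1.83 and 1.88 in lung and 1.18, 1.17 and 1.53 in spleen. Ppp1r15a (chromosome 7, 45522917 to 45526268) encodes GADD34, the phosphatase subunit that removes the phosphate from eIF2α and so ends the response. Its authors' mean was 663 with PBS and 1580 with LPS in wild type lung, 652 and 1760 in mutant lung, and 775 and 2080 in knockout lung. In spleen it was 666 and 1920, 505 and 2070, and 434 and 1710. All 6 log2 ratios of Ppp1r15a were at least 1, from 1.25 in wild type lung to 2.03 in mutant spleen, but scaled to group totals they were 0.89 in wild type lung and 0.93 in mutant lung.

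Hspa5 encodes BiP, the main chaperone of the ER lumen, which also holds the stress sensors inactive (chromosome 2, 34772090 to 34776529). In lung its authors' mean was 4250 with PBS and 9910 with LPS in wild type, 3160 and 10400 for mutant mice, and 3390 and 11100 in knockout mice. In spleen it was 2690 and 3670, 1720 and 3880, and 2140 and 5680. The log2 ratios were 1.22, 1.72 and 1.71 in lung and 0.45, 1.17 and 1.41 in spleen. Wild type spleen thus had the smallest ratio, and scaled to group totals it was 0.06. Per kilobase of annotated exon, Hspa5 had the highest level among the 10 genes in wild type lung, 1005 with PBS and 2343 with LPS, while in LPS spleen Atf4 stood at 1408 and Hspa5 at 868.

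Xbp1, Dnajb9 and Herpud1 had higher means with LPS in every lung group but not in every spleen group, and scaled to group totals Dnajb9 did not in mutant and knockout lung. Xbp1 (chromosome 11, 5520641 to 5525993) encodes the transcription factor downstream of IRE1, and its total message is counted here, spliced or not. Its lung mean was 1660 with PBS and 4590 with LPS in wild type, 1600 and 4050 for mutant mice, and 1630 and 4430 in knockout mice, with log2 ratios of 1.47, 1.34 and 1.44. In spleen the means were 783 and 601 in wild type, 563 and 671 for mutant mice, and 672 and 1170 in knockout mice. The log2 ratios in spleen were -0.38, 0.25 and 0.80, and the mutant value was -0.19 when scaled to group totals.

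Dnajb9 encodes ERdj4, a BiP co-chaperone that restrains IRE1 (chromosome 12, 44205897 to 44210068). In spleen its authors' mean was 190 with PBS and 118 with LPS in wild type and 114 and 96.8 for mutant mice, but 142 and 262 in knockout mice. The log2 ratios were -0.68, -0.23 and 0.88. In lung the means were 503 and 963, 569 and 775, and 562 and 634. The lung ratios of 0.94, 0.45 and 0.17 ran in the opposite order of genotypes, and scaled to group totals they were 0.58, -0.06 and -0.24. Herpud1 encodes an ER membrane protein that helps send misfolded protein to the proteasome (chromosome 8, 94386429 to 94395371). Its spleen means were 430 and 398 in wild type, 385 and 367 for mutant mice, and 439 and 671 in knockout mice, with log2 ratios of -0.11, -0.07 and 0.61. Its lung means were 1210 and 2340, 1330 and 1890, and 1290 and 2030, with log2 ratios of 0.95, 0.51 and 0.65, of which the mutant's was 0.00 when scaled to group totals.

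**Figure D1:**
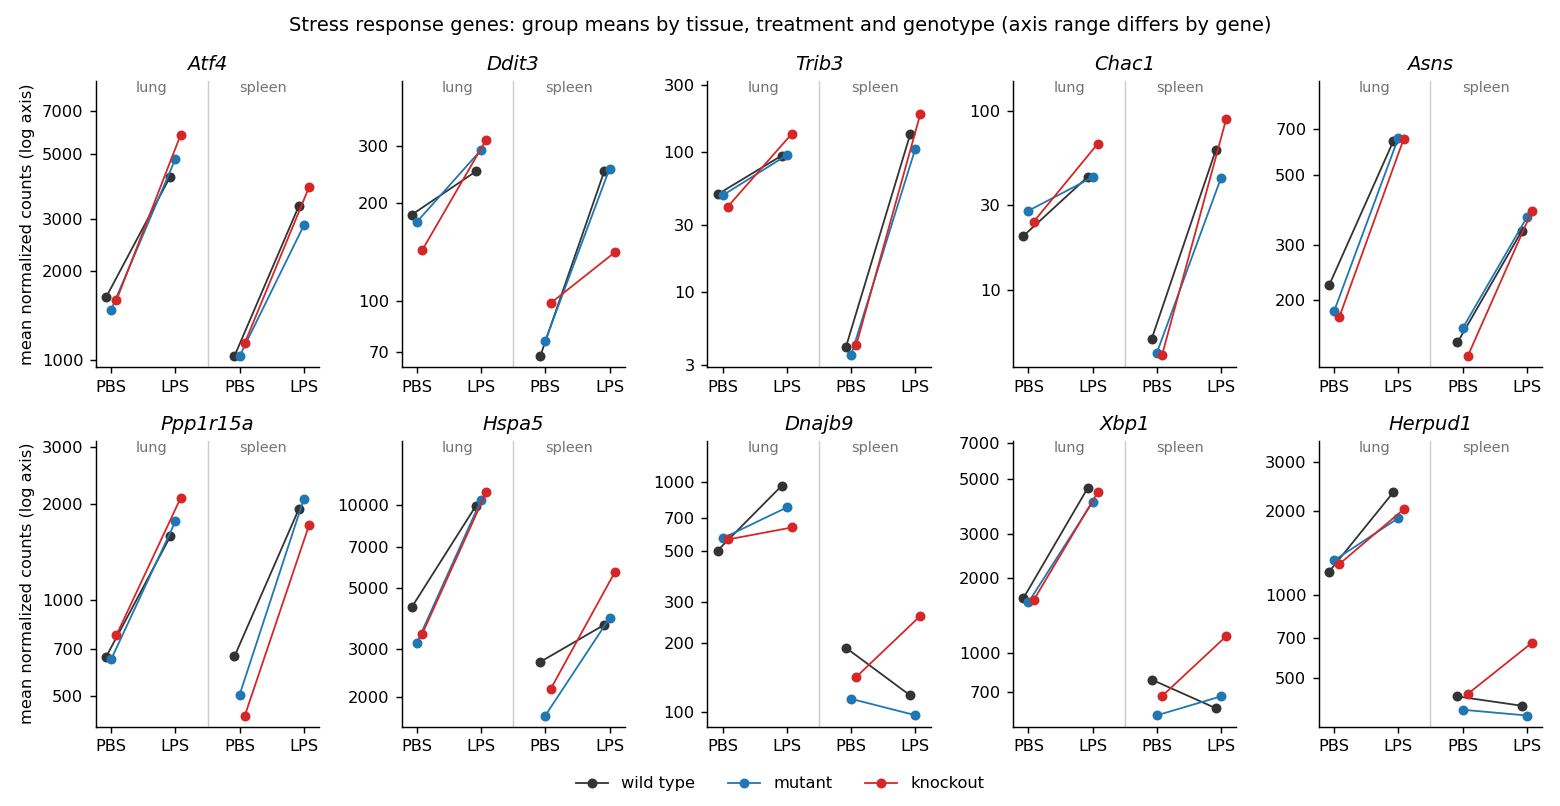
Each panel plots 1 gene's authors' group means (normalized counts, log axis) for PBS and LPS in lung and spleen, with lines joining the 2 treatments of a genotype (black wild type, blue mutant, red knockout; 2 libraries per PBS mean and 3 per LPS mean, no error given). Trib3 and Chac1 start lowest in PBS spleen, at 3.54 to 5.34, and the knockout LPS spleen stands above the other spleen groups for Dnajb9, Xbp1 and Herpud1.

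The LPS ratios were counted beside those of all entries. An entry was counted when its mean was at least 10 in either group, which held for all 10 genes in each comparison. In wild type lung 6 of 10 were at least 2-fold higher with LPS, against 13.9% of 15041 entries. In mutant lung 5 of 10 were, against 15.5%, and in knockout lung 8 of 10, against 16.9%. In spleen the counts were 6 of 10 in wild type (13.5% of entries), 7 of 10 in mutant mice (15.3%) and 6 of 10 in knockout mice (16.6%). None was at least 2-fold lower in any of the 6 comparisons, where between 14.3% and 18.7% of entries were. The median log2 ratio of the 10 was 1.14, 1.14 and 1.43 in lung of wild type, mutant and knockout mice and 1.35, 1.32 and 1.47 in spleen, and that of all entries lay between -0.03 and 0.02. LPS and PBS groups are not tested against each other in the deposited tables, and the counts describe group means. Scaled to group totals, which shifted the median of all entries to between -0.52 and -0.37, 3 of 10 were at least 2-fold higher in wild type lung and 3 of 10 in mutant lung, against 9.61% and 9.79% of entries at that scaling. Dnajb9 in wild type spleen was then at least 2-fold lower (-1.07), as were 24.8% of entries.

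**Figure D2:**
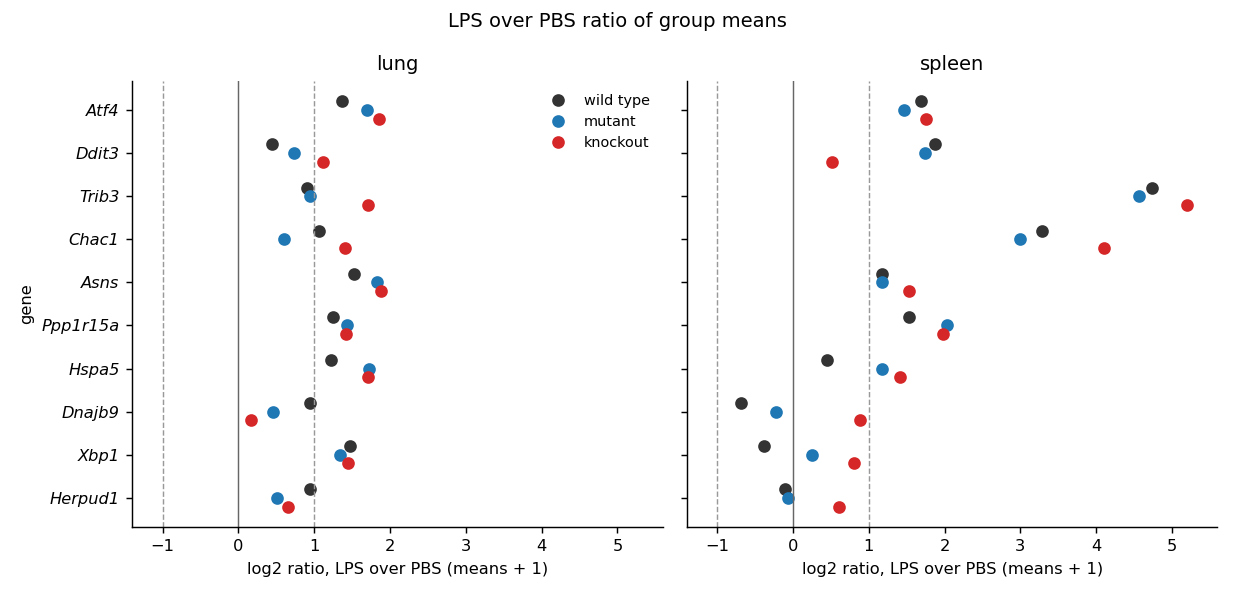
Points give the log2 ratio of LPS to PBS group means (pseudocount of 1) for each gene in lung (left) and spleen (right), coloured by genotype, with dashed lines at 2-fold. Trib3 and Chac1 lie between 2.99 and 5.20 in spleen, while Dnajb9, Xbp1 and Herpud1 in wild type spleen lie between -0.68 and -0.11.

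Wider lists of the same pathways, which leave out the 10 genes, are described next. Of 27 further targets of the integrated stress response, 26 passed the limit on low means. Of these 14 were at least 2-fold higher in wild type lung, 16 in mutant and 18 in knockout lung, and 18, 19 and 20 in the matching spleens, where the shares of all entries were 13.9%, 15.5% and 16.9% in lung and 13.5%, 15.3% and 16.6% in spleen. Their median log2 ratios were 1.14, 1.52 and 1.77 in lung and 1.75, 1.56 and 2.05 in spleen, and scaled to group totals 0.79, 1.02 and 1.36 in lung and 1.36, 1.12 and 1.59 in spleen. Slc7a11, the cystine importer, went from an authors' mean of 28.2 with PBS to 894 with LPS in wild type lung, and from 121 to 270 in wild type spleen. Atf3, a stress-induced transcription factor, went from 37.6 to 372 in wild type spleen, and Nupr1, a stress-induced chromatin protein, from 161 to 1540. Ddit4, an inhibitor of mTOR signalling, had a log2 ratio of 3.20 in wild type lung, but in spleen it was 0.79 for wild type, -1.11 for mutant and -0.36 for knockout mice. Vldlr, a lipoprotein receptor, had the lowest ratio in wild type lung, -0.78, followed by Pck2, the mitochondrial PEP carboxykinase, at -0.68. In wild type spleen Stc2, a secreted glycoprotein, stood lowest at -0.81, followed by Vldlr at -0.30.

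Chaperones and degradation factors of the ER had smaller ratios. Of 18 ER chaperones and folding enzymes 1 was at least 2-fold higher in wild type lung and none in wild type spleen. The shares of all entries were 13.9% and 13.5%. The 18 genes had median log2 ratios of 0.25 and -0.19, which scaled to group totals were -0.11 and -0.58. In knockout lung and spleen the medians were 0.39 and 0.35, and -0.03 and -0.11 when scaled to group totals. Manf, a secreted ER stress protein, was the 1 gene above 2-fold in wild type lung, with means of 624 and 1320, and Hyou1, an ER chaperone, followed at 0.77. Sil1, the nucleotide exchange factor of BiP, had the lowest ratio in wild type lung, -0.66, next to Ppib, an ER prolyl isomerase, at -0.17. In wild type spleen Ero1lb, an ER oxidase, had means of 320 and 158 (-1.01), and Sdf2l1, an ER chaperone cofactor, 122 and 65.6 (-0.89). Sil1 at 0.50 and Ero1l, another ER oxidase, at 0.40 were the highest there. Of 20 genes of ER-associated degradation and translocation none was at least 2-fold higher in wild type of either tissue. The same shares of all entries, 13.9% and 13.5%, stand beside this count. The medians of the 20 genes were 0.40 in lung and -0.13 in spleen, or 0.04 and -0.52 when scaled to group totals. Ssr3 and Sec61a1, parts of the translocation machinery, led in wild type lung with 0.85 and 0.84, and Erlec1 and Edem2, which recognize misfolded glycoproteins, stood lowest at -0.31 and -0.27. In wild type spleen Sec61g and Sec61b, subunits of the translocation channel, stood at 0.63 and 0.44, and Ssr3 and Sel1l, a scaffold of the degradation complex, at -0.49 and -0.45.

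A list of 13 genes held the sensors, enzymes that act on eIF2α and initiation factors, among them Eif2s1, the gene of eIF2α. The medians of the list were 0.55 and 0.64 in wild type lung and spleen, and Eif2s1 stood at 1.11 and 0.66. Of the 13, 4 in wild type lung and 3 in wild type spleen were at least 2-fold higher. The shares of all entries that were at least 2-fold higher were 13.9% and 13.5%. Scaled to group totals 2 and 1 of the 13 genes were at least 2-fold higher, against 9.61% and 7.56% of entries, with medians of 0.20 and 0.25. Eif2ak2 encodes PKR, the eIF2α kinase that senses viral RNA and is itself an interferon-induced gene. Its authors' mean went from 435 to 2400 in wild type lung and from 355 to 1300 in wild type spleen. Eif2ak3, which encodes PERK, had a lower mean with LPS in all 6 comparisons. It went from 297 to 268 in wild type lung and from 172 to 97.0, 199 to 61.8 and 197 to 118 in wild type, mutant and knockout spleen. Ppp1r15b, the constitutive counterpart of GADD34, had a log2 ratio of 1.38 in wild type lung and 0.79 in wild type spleen, and Atf6 had 1.09 and 1.26. Mbtps1, the protease that activates ATF6, stood lowest in wild type lung at -0.38, and Eif2a, an initiation factor, stood at -0.07 in wild type spleen.

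**Figure D3:**
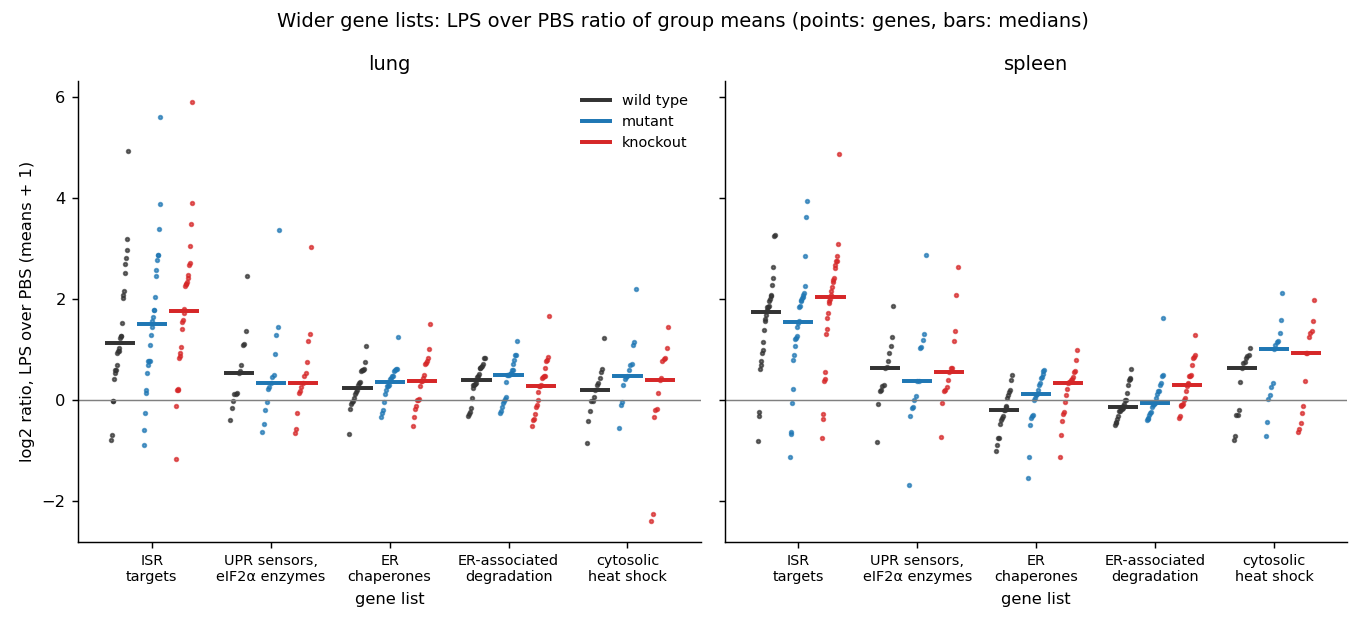
Points give each gene's log2 ratio of LPS to PBS group means in 5 wider lists, by genotype, and bars give the list medians. In spleen the targets of the integrated stress response have medians of 1.56 to 2.05, or 1.12 to 1.59 when scaled to group totals. The ER chaperones have medians of -0.19 to 0.35, or -0.58 to -0.11 when scaled to group totals.

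Genotype comparisons compare the 2 lincRNA-Cox2 lines with wild type mice and with each other. Ptgs2, the neighbour of the locus, had authors' LPS means of 1397, 1058 and 208 in lung of wild type, mutant and knockout mice and 214, 111 and 65.8 in spleen. None of the 10 was called in any of the 12 comparisons of the authors' deposited table (DESeq2) at an adjusted p under 0.05. In lung under LPS the share of all tested entries called was 0.0715% for mutant against wild type, 0.441% for knockout against wild type and 0.243% for knockout against mutant. Under PBS it was 0.00524%, 0.0421% and 0.0523%. In spleen it was 0.00545%, 0.0241% and 0.177% under LPS and 0%, 0.160% and 0% under PBS. At the authors' limit of 0.1 the shares were 0.0954%, 0.773% and 0.512% in LPS lung, 0.00524%, 0.0474% and 0.0523% in PBS lung, 0.00545%, 0.133% and 0.371% in LPS spleen and 0%, 0.384% and 0% in PBS spleen. With so few calls over all entries, 0 of 10 is near the background. Unadjusted p-values were not used here, and in knockout against wild type spleen under PBS 5 of the 10 had an adjusted p.

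In lung under LPS the authors' folds of the 10 genes in knockout mice against wild type ran from -0.59 (Dnajb9, adjusted p 0.220) to 0.57 (Chac1, adjusted p 0.696), as the authors' deposited table gives them. Of the 10 folds 7 were above 0, as were 50.2% of those of all entries. Atf4 stood at 0.46 with an adjusted p of 0.349, Trib3 at 0.49 with 0.700 and Ppp1r15a at 0.39 with 0.462, each per the authors' deposited table. Asns stood at 0.02. In the mutant against wild type the 10 folds ran from -0.31 to 0.20, with adjusted p-values of at least 0.972 in the authors' deposited table.

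In spleen under LPS the knockout had the highest mean of the 3 genotypes for 8 of the 10 genes, Ddit3 and Ppp1r15a being the others, and for 37.7% of 13148 entries with a mean of at least 10 in any LPS group. The fold was above 0 for 8 of the 10 against wild type and for 8 of the 10 against the mutant, as it was for 45.3% and 47.3% of entries. Against the mutant, Herpud1 stood at 0.86 (adjusted p 0.0893, authors' deposited table). The authors mark a call up to an adjusted p of 0.1, which 0.371% of 11871 entries reached in that comparison, and Herpud1 was the 1 gene of the 10 to reach it. Dnajb9 stood at 1.24 with an adjusted p of 0.276, Xbp1 at 0.76 with 0.257 and Hspa5 at 0.54 with 0.352, in the authors' deposited table. Against wild type, Dnajb9 stood at 1.01 with an adjusted p of 0.588, Xbp1 at 0.92 with 0.272, Herpud1 at 0.74 with 0.363 and Hspa5 at 0.61 with 0.472, in the authors' deposited table. These 2 comparisons share the knockout libraries. In mutant against wild type spleen the folds of the 10 genes ran from -0.38 to 0.16, each with an adjusted p of 1 by the authors' deposited table.

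The wider lists in knockout spleen under LPS were counted in the same way. Against wild type, 17 of 18 ER chaperones and 15 of 20 degradation and translocation genes had authors' folds above 0, with medians of 0.37 and 0.35, and the median of all entries was -0.06 with 45.3% above 0. None was called at an adjusted p under 0.05, a limit that 0.0241% of all tested entries passed. Derl3, which draws misfolded protein out of the ER and is named here after its value was seen, had authors' means of 45.1 in wild type and 138 in knockout mice. Its fold was 1.51 (adjusted p 0.0941, authors' deposited table), a level that 0.133% of entries reached. Of the 5 lists, cytosolic heat shock included, none held a gene called at an adjusted p under 0.05 in any of the 12 comparisons. Between 0% and 0.441% of all tested entries were called in them, so a lack of calls is near the background. In knockout against wild type spleen under PBS, 12 of 18 ER chaperones and 14 of 20 degradation and translocation genes had an adjusted p. So did 16 of 27 integrated stress response targets, 6 of 13 in the sensor list and 8 of 13 heat shock genes.

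**Figure D4:**
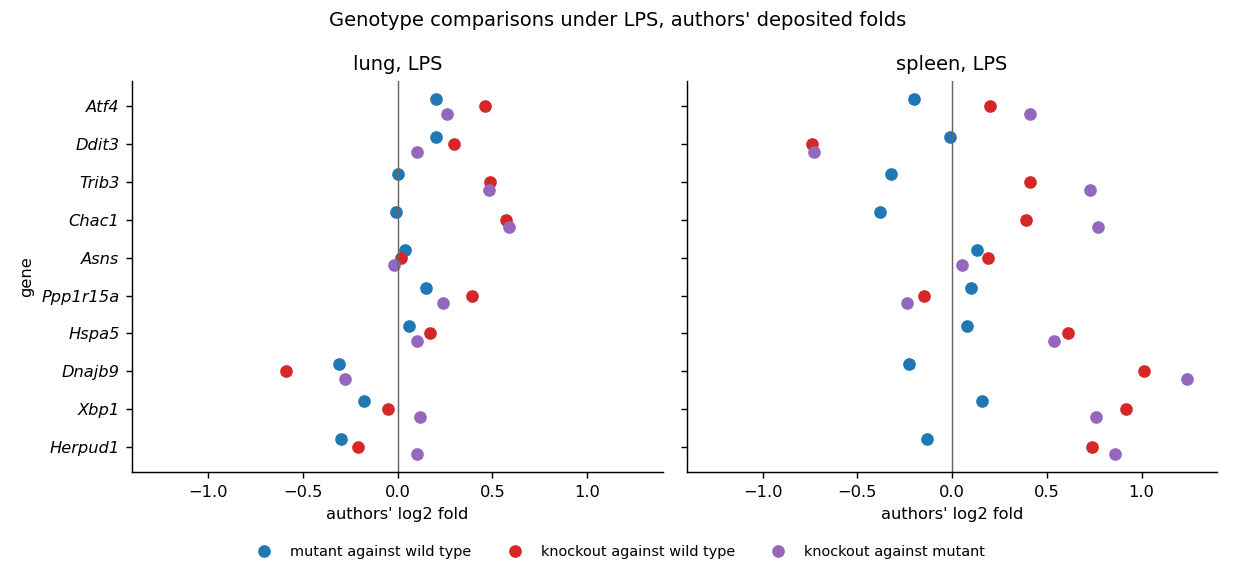
Points give the authors' deposited log2 folds under LPS for each gene in lung (left) and spleen (right), with colours for the 3 genotype comparisons. In spleen Dnajb9, Xbp1, Herpud1 and Hspa5 lie between 0.54 and 1.24 in both knockout comparisons, and none of the points was called at an adjusted p under 0.05.

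Marker genes of other cell types differed beside these spleen values. The 6 plasma cell genes, markers of secretory B lineage cells that use the IRE1 branch heavily, summed to 6349 in knockout LPS spleen and to 2096 and 2885 in wild type and mutant LPS spleen, and none was at 0. With PBS the sums were 4539, 3507 and 3298. The sum was mostly Igj, the joining chain of antibodies, with authors' means of 4920, 1260 and 1930 under LPS. Mzb1, an ER protein of plasma cells, stood at 153, 93.9 and 79.0, and Prdm1, the transcription factor of plasma cells, at 355, 150 and 189. Irf4 and Sdc1, a transcription factor and a surface protein of plasma cells, were also highest in knockout LPS spleen, at 833 and 84.9. Tnfrsf17, a survival receptor of plasma cells, was highest in the mutant, at 4.64 against 1.79 in wild type and 3.16 in knockout spleen. Within knockout spleen the markers differed in direction. Igj had a mean of 3680 with PBS and 4920 with LPS, while Mzb1 had 367 and 153 and Tnfrsf17 14.3 and 3.16. The 8 B cell genes summed to 4518 in knockout LPS spleen, 7905 in wild type and 4768 in the mutant. The part of these cells in the result was not tested, and in whole tissue more cells of a type and more RNA per cell cannot be told apart.

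Genes of pancreatic acinar cells, which are rich in ER chaperones, were also detected in the spleen libraries. The 12 acinar genes summed to 16733 in knockout LPS spleen, below 27874 in wild type and 43281 in mutant LPS spleen, and with PBS to 5104, 1852 and 36640. Among LPS spleens the knockout had the lowest acinar sum and the highest Xbp1, Herpud1, Dnajb9 and Hspa5 means. In wild type spleen Dnajb9, Xbp1 and Herpud1 had lower means with LPS, where the acinar sum was higher. In knockout spleen the acinar sum and the means of these genes were both higher with LPS. The part of acinar RNA in the genotype differences was not tested. In lung the acinar sum was 1151 in wild type mice with PBS and 63.6 with LPS, and between 67.9 and 243 in the other groups. The 9 hepatocyte genes measured summed to 370 with PBS and 6502 with LPS in knockout spleen, 2042 and 2036 in wild type spleen, and 256 and 6020 in mutant spleen. Hp, a plasma protein gene also raised in inflammation, made up 465 of the sum in wild type PBS spleen and 1770 in wild type LPS spleen. The other hepatocyte genes measured were all lower with LPS there, such as Alb at 855 and 121 and Ahsg at 129 and 13.5. In lung the median mean of the 9 hepatocyte genes was 41.2 with PBS and 26.3 with LPS in wild type. It was 2.06 and 62.2 in mutant lung and 13.9 and 189 in knockout lung. In lung 9 neutrophil genes summed to between 2472 and 3047 with PBS and between 24453 and 27123 with LPS, and in spleen to 5512, 17323 and 3722 with LPS in wild type, mutant and knockout. Skeletal muscle genes summed to 3721 and 853 in knockout lung with PBS and LPS and to at most 81.2 in the other lung groups. The part of these cells in the LPS ratios and in the genotype differences was not tested.

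Genes with the most similar pattern were taken by Pearson's r of log2 group means, centred within each tissue, over the 12 group means, among genes with an overall mean of at least 100 in both tables. For Hspa5 these were Cops2, Rgs1, B2m, Lap3 and Cxcl16, with r from 0.987 to 0.990. For Trib3 they were Traf1, Eif4ebp1, Bms1, Txn2 and Shmt2, with r from 0.985 to 0.993. Eif4ebp1, which restrains cap-dependent translation, and Shmt2, a mitochondrial enzyme of serine metabolism, are also on the list of integrated stress response targets. Among the 10 genes, Chac1 followed Trib3 with r = 0.991, Ppp1r15a with 0.892, Ddit3 with 0.857 and Atf4 with 0.854. Asns had 0.760 and Hspa5 0.713 with Trib3, while Dnajb9, Herpud1 and Xbp1 had 0.153, 0.381 and 0.383. Hspa5 was followed most closely by Asns with r = 0.953 and Atf4 with 0.943, then by Xbp1 with 0.898 and Ppp1r15a with 0.881. Herpud1 came next, ahead of Chac1 with 0.736, Trib3 with 0.713, Ddit3 with 0.704 and Dnajb9 with 0.539. The 12 means share their libraries and the LPS contrast, so the values describe these groups only.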

How the data were processed

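Messenger RNA libraries of lung and spleen were grouped by the labels. Per the submitters' processing notes, Bowtie2, STAR 2.5.3a, SAMtools, bedtools and DESeq2 were used with mm10. Their order and settings are not given in the sources used here. Per the file headers, each deposited table holds group means of counts divided by size factors (a normalized signal), the authors' log2 folds, adjusted p-values (a score in the table of units, since broken lines hold other values) and marks of calls. Of 19476 lung and 18850 spleen lines, 6 and 5 with broken cells were left out, and 1026 split spleen symbols were rejoined.

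For each genotype the LPS mean plus a pseudocount of 1 was divided by the PBS mean plus 1, on a log2 scale, with no test. Genotypes were compared by the authors' adjusted p under 0.05. Library totals were estimated from the smallest steps between low means, which explained at least 98.5% of low values within 0.5%. The scripts (Python 3.11.15, pandas 2.3.3) were tested on simulated data. All 10 members and, from each wider list, the 2 highest and 2 lowest wild type LPS ratios per tissue were named, and other genes after their values were seen. The members and lists were chosen with earlier results of these data known. Promoters were searched in the bases before the start only, in place of the whole deposited stretch. That window, the second form of the ER stress response element and the scaling to group totals were added after seeing the data.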

Additional observations from a re-analysis of the deposited data

How the results depend on the processing

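The 60 LPS ratios of the 10 genes kept their sign with a pseudocount of 10 and when centred on the median of all entries. The pseudocount of 10 moved 6 of them by over 1.5 times, those of Trib3 and Chac1 in spleen, and 1 was no longer 2-fold, which left 5 genes in wild type lung. Scaled to group totals, an alternative chosen after seeing the data, 3 changed sign and 10 were no longer 2-fold. The count of genes at least 2-fold higher was then 3 in wild type lung and 3 in mutant lung, and 1 was at least 2-fold lower in wild type spleen. With a 1.5-fold limit 8 in place of 5 were higher in mutant lung, and 9 in place of 6 in wild type lung and in knockout spleen. In wild type spleen 1 was then lower. The share of all entries was not counted at that limit or with the pseudocount of 10, so those counts have no background. The other counts stayed within 1.5 times under each alternative, no filter on low means included. At an adjusted p up to 0.1 in the authors' deposited comparisons, Herpud1 alone (1 gene) was called in knockout against mutant spleen under LPS. With group means only, single replicates could not be left out, so the weight of the shallow mutant LPS spleen is unknown. No paired analysis was possible because the tables give group means and the labels pair no samples.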

Other observations

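Chaperones of the cytosolic heat shock response, a program separate from the ER, were measured through 13 genes. Their median log2 LPS ratio in lung was 0.21 (wild type), 0.48 (mutant) and 0.41 (knockout), and in spleen 0.64, 1.02 and 0.93. Scaled to group totals the wild type and mutant lung medians were -0.15 and -0.02, and the spleen medians 0.25, 0.58 and 0.47. Hsp90ab1, a constitutive cytosolic chaperone, stood at 6050 (PBS) and 12400 (LPS) in wild type spleen and at 9220 and 9580 in wild type lung, as authors' means. Hspd1, the mitochondrial chaperonin, had log2 ratios of 0.90 in wild type spleen and 0.63 in wild type lung, and Hspb1, a small heat shock protein, 1.24 in wild type lung. The stress-inducible Hspa1a and Hspa1b, near-identical copies whose reads cannot be assigned with certainty, had lower means with LPS for every genotype in both tissues. In wild type spleen their log2 ratios were the lowest of the list, -0.71 for Hspa1a and -0.79 for Hspa1b. Hspa1a stood at 205 (PBS) and 114 (LPS) in wild type lung, 83.0 and 56.5 in mutant lung, and 305 and 63.7 in knockout lung. Hspa1b stood at 242 and 182 in wild type lung and at 354 and 67.0 in knockout lung, and its log2 ratio in mutant lung was -0.03. No gene of the list was called between genotypes at an adjusted p under 0.05. The comparisons called between 0% and 0.441% of all tested entries, so this is near the background. In knockout against wild type spleen under PBS 8 of the 13 genes had an adjusted p.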
